A study of Rattus norvegicus with 16 samples.

Results

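The livers of 4 rats re-fed for 2 days after a long fast (P3r2) were compared with the livers of 4 rats still fasting in phase 2 (P2), over all 13213 genes that had an array row of their own. These 8 arrays are part of a set of 16, in which 4 fed rats (Fed) and 4 rats fasted to phase 3 (P3) make up the rest. All animals were male Sprague Dawley rats, dealt at random into the groups, and each array is the liver RNA of 1 animal on the Affymetrix Rat Exon 1.0 ST array. The P3r2 animals had gone through phase 3 before they ate, whereas the P2 animals had not reached it. A difference between these groups is therefore that of eating and of a longer fast together, which cannot be told apart here. The labels and design text used here give no age, length of fast, re-feeding diet or hour of sampling. The arrays measure whole liver, so fewer cells of a type and less RNA per cell cannot be told apart.

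In phase 2 of a long fast the body lives mainly on its fat and spares protein, and in phase 3 protein breakdown rises. During a fast, low insulin and high glucagon keep hepatic genes of glucose release on and genes of fat synthesis off. When food returns, insulin and glucose act through the factors SREBP-1c, ChREBP and FOXO1 to turn sugar into glycogen and fat, and the liver takes up the making of secreted proteins again.

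Values are log2 signals, so that a difference of 1 is a 2-fold change. Changes are P3r2 minus P2 in log2 units, written with the standard error of the fit, and a gene is "called" where the adjusted p of limma over all 18885 rows is below 0.05. Of the 13213 genes, 14.8% were called higher in P3r2 (1962 genes) and 4.69% lower (620 genes). Over all rows, 2131 were higher (11.3%) and 823 lower (4.36%), 15.6% in either direction. By at least 2-fold, 582 genes were higher and 85 lower, and by at least 4-fold, 51 and 6. The median change of all genes was 0.00. The counts of list members below are to be read against these shares.

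**Figure D1:**
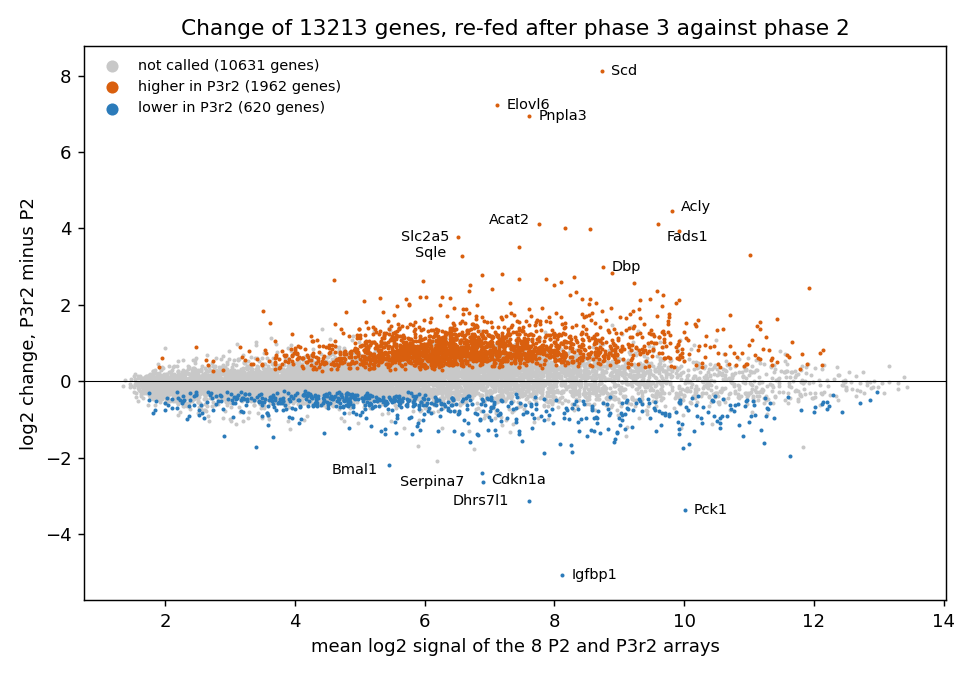
Change between P3r2 and P2 (vertical axis, log2) against the mean log2 signal of the 8 arrays (horizontal axis), 1 point per gene, coloured by the limma call. Scd, Elovl6 and Pnpla3 stand above all other genes at 8.12, 7.23 and 6.93, and Igfbp1 lies lowest at -5.07.

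The arrays themselves differed between the groups in a way that touches every count. The distance from an array's median to its upper quartile was 1.49 to 1.79 log2 units in P2 and 1.83 to 2.12 in P3r2, with no overlap (means 1.65 ± 0.12 and 2.03 ± 0.13, SD, n = 4 each). The difference of 0.38 had an exact two-sided permutation p of 0.02857, the smallest that 4 against 4 can give. With this spread as a covariate, 256 of the genes called higher and 123 of those called lower were still called, and after quantile normalization 1260 and 516 were. The split of rows moved from 2131 higher and 823 lower to 1502 and 1229 after quantile normalization, and to 289 and 262 with the covariate. Each gene list below is therefore given with the number of its called members that were called also with the covariate. The spread does not overlap between P2 and P3r2, so the covariate shares part of the group difference and makes its estimate less precise. A call lost with it can come from lost precision or from the spread, which cannot be told apart here. Single arrays mattered as well: the higher count was 1258 without P2 4, 1357 without P3r2 1, 1302 without P3r2 2 and 1277 without P3r2 3, and the lower count was 498 without P2 2, 402 without P2 4, and 362, 335 and 366 without P3r2 1, 2 and 3. Arrays correlated at 0.972 to 0.984 within P2, at 0.986 to 0.992 within P3r2 and at 0.948 to 0.978 between the groups.

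All 13 measured genes of fatty acid synthesis were higher in the re-fed livers, and the largest rises of the whole comparison were those of Scd, Elovl6 and Pnpla3, which desaturate, lengthen and handle the new fatty acids. Scd (transcript cluster 7062917), the desaturase that turns stearate into oleate, had log2 signals of 4.19, 4.78, 4.80 and 4.93 in P2 1 to P2 4 and 12.84, 12.85, 12.80 and 12.67 in P3r2 1 to P3r2 4. It lay near the median of all rows in the 4 P2 livers (the arrays' medians were 4.41 to 4.46) and far above it in the 4 re-fed livers. The change was 8.12 ± 0.42 log2 units (limma adjusted p = 2.9e-08). Elovl6, which lengthens palmitate, had 3.39, 3.89, 3.48 and 3.26 in P2 and 11.39, 10.30, 10.64 and 10.60 in P3r2, a change of 7.23 ± 0.28 (limma adjusted p = 9.0e-10). Pnpla3, a lipid droplet protein whose gene answers to SREBP-1c and ChREBP, had 4.33, 3.95, 4.16 and 4.16 and 11.66, 11.56, 10.76 and 10.33, a change of 6.93 ± 0.59. For these genes the groups lay far apart: the lowest re-fed liver was above the highest P2 liver in each. The P2 signals of Elovl6 and Pnpla3 lay below the median of every P2 array. The table used here gives no background level, so these P2 signals may be at background; the changes of both genes would then be lower bounds, and the order of the 3 is that of the deposited signals.

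The list of fatty acid synthesis and its regulators had 13 measured members, and all 13 were called higher (median change 2.43; 12 also with the covariate). Acly, which makes cytosolic acetyl-CoA from citrate, had 7.98, 7.60, 7.88 and 6.86 in P2 and 12.30, 12.04, 12.07 and 11.76 in P3r2, a change of 4.46 ± 0.27. The acetyl-CoA carboxylases Acaca (4.01 ± 0.27) and Acacb (3.52 ± 0.21), which make malonyl-CoA, were higher, as were malic enzyme Me1 (3.99 ± 0.38), a source of NADPH, and the liver pyruvate kinase Pklr (3.93 ± 0.33). The regulator Srebf1, the gene of SREBP-1c, was 2.13 ± 0.21 higher and Thrsp (Spot 14), a nuclear protein that promotes lipogenesis, 2.43 ± 0.14. Smallest was transaldolase Taldo1 (0.72 ± 0.15), the member that was not called with the covariate. Of the 10 desaturases and elongases, 7 were higher and 0 lower (median 1.45; 5 also with the covariate). Beside Scd and Elovl6 these included the delta-5 and delta-6 desaturases Fads1 (4.12 ± 0.34) and Fads2 (3.29 ± 0.37) of polyunsaturated fatty acid synthesis. Scd2, a close relative of Scd, was higher by less (1.29 ± 0.28), though related sequences can share probes. Fasn, fatty acid synthase, and Mlxipl, the gene of ChREBP, had no row of their own and were not analysed here. Of the triglyceride and lipid droplet genes, 5 of 20 were higher and 1 lower (1 and 0 with the covariate), among them Gpam (2.06 ± 0.42), the first acyltransferase of glycerolipid synthesis, and Plin2 (1.17 ± 0.22), which coats lipid droplets. Lpin1 (0.61 ± 0.41), a phosphatidate phosphatase, was not called.

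**Figure D2:**
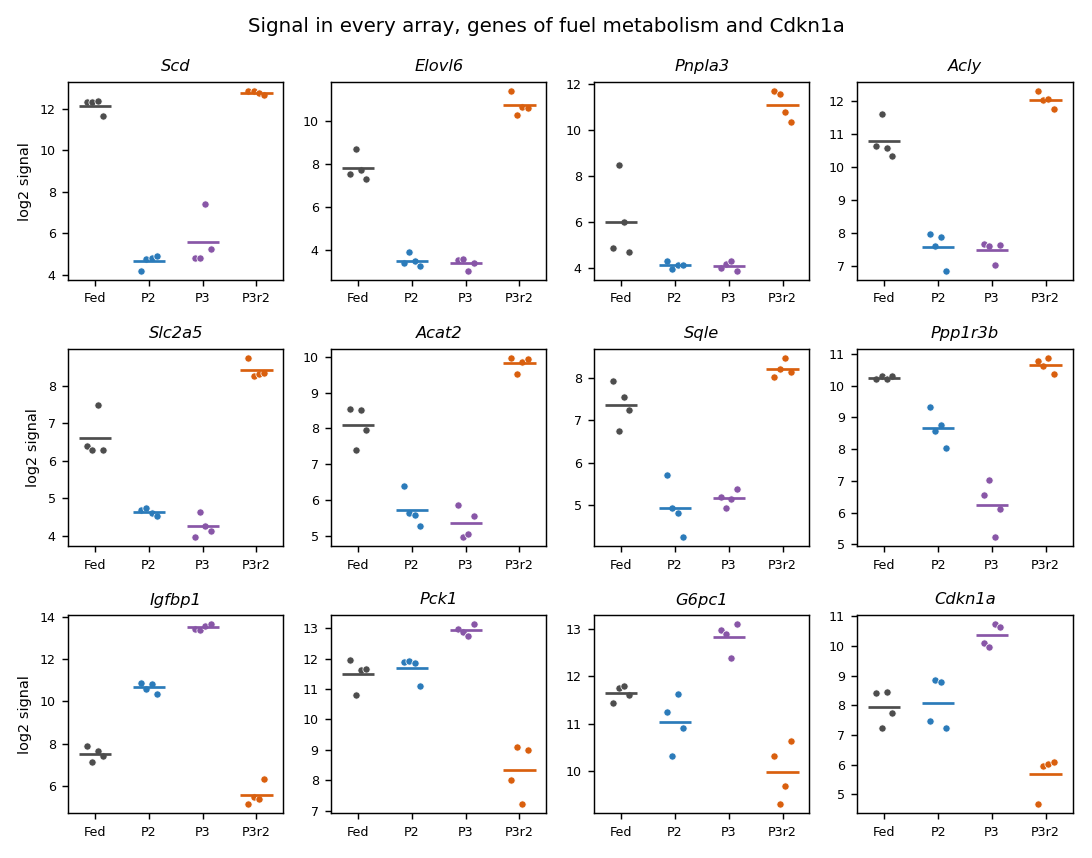
Log2 signal (vertical axes, each with its own range) in every array of the 4 groups, 1 point per animal and a bar at the group mean. Scd, Elovl6, Pnpla3, Acly, Slc2a5, Acat2, Sqle and Ppp1r3b lie higher in all 4 P3r2 arrays than in all 4 P2 arrays, Igfbp1, Pck1 and Cdkn1a lie lower in all 4, and G6pc1 overlaps.

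Cholesterol synthesis genes were higher nearly throughout, by less than the lead genes of fatty acid synthesis. Of 18 measured members of the list, 17 were called higher and 0 lower (median 1.72; 12 also with the covariate, 17 in every fit that left out 1 array). Acat2, the cytosolic thiolase that joins acetyl-CoA units, had 6.39, 5.62, 5.57 and 5.26 in P2 and 9.97, 9.52, 9.86 and 9.93 in P3r2, a change of 4.11 ± 0.28 (limma adjusted p = 4.1e-07). Sqle, squalene epoxidase, had 5.72, 4.94, 4.83 and 4.25 and 8.02, 8.20, 8.47 and 8.13, a change of 3.27 ± 0.27. Neither gene overlapped between the groups, and P2 1 was the highest P2 liver for both. Further along the pathway Lss (2.73 ± 0.21), which closes squalene epoxide into lanosterol, and Msmo1 (2.56 ± 0.28), a sterol methyl oxidase, were higher. The factor Srebf2 (1.21 ± 0.23), which drives the pathway when sterol is low, and Insig1 (1.02 ± 0.21), which holds that factor back when sterol is high, were both higher. Insig2, a key gene outside the list, was called lower (-1.08 ± 0.20) with no overlap. The member of the list that was not called was Scarb1 (0.39 ± 0.19).

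**Figure D3:**
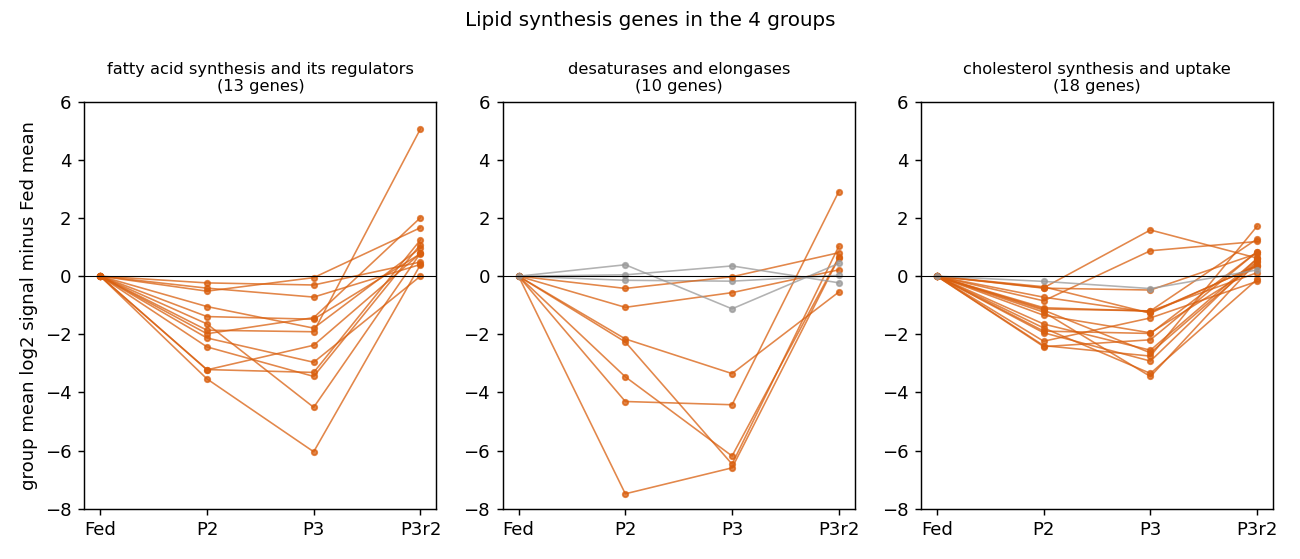
Group means of the measured genes of 3 lipid lists, as log2 signal minus the Fed mean of the same gene (vertical axis), in Fed, P2, P3 and P3r2 (horizontal axis, 1 line per gene, orange where called higher in P3r2 than P2). All 13 genes of fatty acid synthesis and 15 of the 17 called cholesterol genes have a P3r2 mean above their Fed mean, and they lie below the Fed mean in P2.

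Most of the promoters of the cholesterol genes held the same short sequence, which was also frequent in another list. The CCAAT box, the letters CCAAT on either strand, to which the factor NF-Y binds beside SREBP in sterol genes, lay within 250 bases upstream of the start in 11 of the 14 called members with a RefSeq window, or 78.6%. It lay there in 35% of the 10871 measured genes with a window and in 39.1% of those called higher. All 14 measured cholesterol genes with a window were called higher, so there are no uncalled members to compare. In the list of endoplasmic reticulum folding and secretion the box lay in 26 of 39 windows, or 66.7%. Among the higher members of that list it lay in 11 of 17, or 64.7%. The sterol response element, searched as TCACNCCAC, was in 0 of the windows of 14 cholesterol and 12 fatty acid synthesis genes (0.957% of all windows), and the E-box CACGTG in 0 of the latter 12 (7.15% of all). Stretches from 5 of the promoters are printed below from RefSeq, assembly GRCr8, 5′ to 3′ along the gene, with CCAAT or its reverse complement ATTGG in capitals and the place of each box's first base counted back from the gene's start. Lss and Msmo1 were named by size of change, and Idi1, Nsdhl and Hsd17b7 were chosen afterwards because they hold several boxes, to show their spacing. Further boxes of Nsdhl (first base at -208), Hsd17b7 (-176) and Msmo1 (-173) lie in the searched windows but outside the stretches printed.
Idi1, chr17:66547545-66547599 (- strand), first base at -66 and -35: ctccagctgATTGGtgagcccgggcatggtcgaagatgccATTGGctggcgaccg
Lss, chr20:12118281-12118325 (- strand), first base at -82: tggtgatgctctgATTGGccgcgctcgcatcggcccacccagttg
Msmo1, chr16:29746995-29747057 (+ strand), first base at -109 and -68: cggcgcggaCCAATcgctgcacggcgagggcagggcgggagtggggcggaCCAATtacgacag
Nsdhl, chrX:155817224-155817304 (+ strand), first base at -128, -119, -91 and -65: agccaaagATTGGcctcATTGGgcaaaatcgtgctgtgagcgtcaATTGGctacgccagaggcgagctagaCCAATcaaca
Hsd17b7, chr13:84722769-84722849 (- strand), first base at -86 and -25: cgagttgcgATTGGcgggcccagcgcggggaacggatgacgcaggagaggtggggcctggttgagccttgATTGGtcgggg
In the same order, these genes were 1.69 ± 0.29, 2.73 ± 0.21, 2.56 ± 0.28, 1.74 ± 0.22 and 2.04 ± 0.28 higher in P3r2. Nsdhl and Hsd17b7 code for enzymes that act one after the other on the sterol ring, and Idi1 makes dimethylallyl diphosphate, an isoprene unit. The match is of letters alone, and binding was not measured.

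Genes of sugar uptake and storage were higher as well. Genes of gluconeogenesis were called in both directions, with Pck1 and G6pc1 among the lower. Of 13 genes of glycolysis and fructose metabolism, 8 were higher and 0 lower (median 0.56; 4 also with the covariate). After Pklr, the largest change was that of Slc2a5, the fructose transporter, with 4.67, 4.75, 4.60 and 4.51 in P2 and 8.74, 8.27, 8.30 and 8.32 in P3r2 (3.77 ± 0.23). Its P2 signals lay just above the medians of the P2 arrays (4.41 to 4.46), so they may be near background and the change a lower bound. Gpi (1.69 ± 0.19), glucose phosphate isomerase, and Slc2a2 (1.44 ± 0.23), the glucose transporter GLUT2 of hepatocytes, were higher too. Of 10 glycogen genes 7 were higher and 0 lower (median 1.101; 2 also with the covariate). Both the synthase Gys2 (1.76 ± 0.21) and the phosphorylase Pygl (1.58 ± 0.24), which act in opposite directions, were among them, as was Ppp1r3b (1.98 ± 0.31), which brings protein phosphatase 1 to glycogen.

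Pck1, the cytosolic PEP carboxykinase that sets the pace of gluconeogenesis, had 11.89, 11.91, 11.86 and 11.10 in P2 1 to P2 4 and 8.01, 9.09, 7.23 and 8.996 in P3r2 1 to P3r2 4, a change of -3.36 ± 0.35 (limma adjusted p = 2.7e-05). All 4 re-fed livers lay well below all P2 livers. Its Fed mean was 11.51 and its P3 mean 12.93, so the re-fed livers stood below every other group mean. G6pc1, the catalytic subunit of glucose-6-phosphatase, had 11.26, 10.31, 11.64 and 10.90 and 10.32, 9.30, 9.68 and 10.62, and these values overlapped. Its change of -1.04 ± 0.29 was called (limma adjusted p = 0.025), but the adjusted p rose to as much as 0.087 with 1 array left out. The gluconeogenesis list as a whole went both ways, with 6 of 21 higher and 3 lower (median 0.08; 1 and 2 with the covariate). Those higher included Gpd1 (1.62 ± 0.26), the cytosolic glycerol phosphate dehydrogenase, and pyruvate carboxylase Pc (1.28 ± 0.28), which serve lipid synthesis and the citric acid cycle as well. The remaining higher members were Mdh1, Got2, Pck2 and Fbp1. Alanine aminotransferase Gpt (-1.11 ± 0.31) was the other lower member, and the coactivator Ppargc1a (0.08 ± 0.29) was not called.

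Many genes of pyruvate oxidation and the citric acid cycle were higher, and genes of the respiratory chain and of fatty acid oxidation were called in both directions. Of 26 genes of the cycle and of pyruvate dehydrogenase, 16 were higher and 0 lower (median 0.73; 8 also with the covariate). Pdp2, the phosphatase that switches pyruvate dehydrogenase on, had 5.80, 6.19, 5.64 and 4.16 in P2 and 8.10, 8.24, 7.84 and 7.66 in P3r2, a change of 2.51 ± 0.38. Its groups did not overlap, and P2 4 was the lowest of the P2 livers. The kinase Pdk1 (1.41 ± 0.12), which switches the complex off, was higher too, and so were Pc and Idh3a (1.26 ± 0.21), of isocitrate dehydrogenase. Idh3a and Pc were not called with the covariate.

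In the oxidative phosphorylation list, 5 of 50 were higher and 8 lower, and the median was -0.18 (1 and 0 with the covariate). After quantile normalization 6 were higher and 13 lower, with a median of -0.40. The higher members included Ndufs1 (1.32 ± 0.23) of complex I and Atp5f1a (0.50 ± 0.09) of the ATP synthase, and the lower ones Atp5mc2 (-1.25 ± 0.30) of the ATP synthase and Cox4i1 (-0.90 ± 0.24) of cytochrome oxidase. The share higher, 10%, was below the 14.8% of all genes, and the share lower, 16%, above the 4.69%. Changes followed gene length: across 13205 genes with a known length the Spearman correlation was 0.28, a description across genes of the same 8 arrays. The shortest of 5 equal length classes (median span 1997 bases) had a median change of -0.13 with 97 higher and 196 lower, and the longest (122933 bases) had 0.11 with 493 higher and 52 lower. With the trend with length taken out, all 5 higher members and 4 of the 8 lower ones were still called, and the list had 7 higher and 4 lower.

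Of 24 genes of mitochondrial fatty acid oxidation, 3 were higher and 5 lower (median -0.04; 1 and 1 with the covariate). The lower count was 8 after quantile normalization, with 2 higher and a median of -0.17, and 9 with the length trend taken out, with 3 higher. Those lower included Decr1 (-1.31 ± 0.27) and Eci1 (-1.15 ± 0.28), which deal with the double bonds of unsaturated fatty acids. Ech1, another enzyme of that kind, had 10.998, 10.98, 10.84 and 10.63 in P2 and 9.19, 8.59, 9.21 and 9.48 in P3r2 and was also lower (-1.75 ± 0.23). Its groups did not overlap. Acsl5 (1.55 ± 0.13) and Acsl3 (0.98 ± 0.18), acyl-CoA synthetases that also feed fatty acids into lipid synthesis, were higher. Cpt1a (0.04 ± 0.30), the gate of fatty acid entry into mitochondria, was not called, and its means were 9.35 in P2 and 9.39 in P3r2. Among 18 genes of peroxisomal oxidation and PPARα targets, 2 were higher and 1, Ech1, was lower (0 and 1 with the covariate), and of 5 ketone body genes 2 were higher, Slc16a6 (1.36 ± 0.26), which exports ketone bodies, and Bdh1 (0.94 ± 0.19), which makes 3-hydroxybutyrate. Neither of these was called with the covariate, and Fgf21 (1.05 ± 0.43), a hormone of the fasting liver, was not called in the fit itself.

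**Figure D4:**
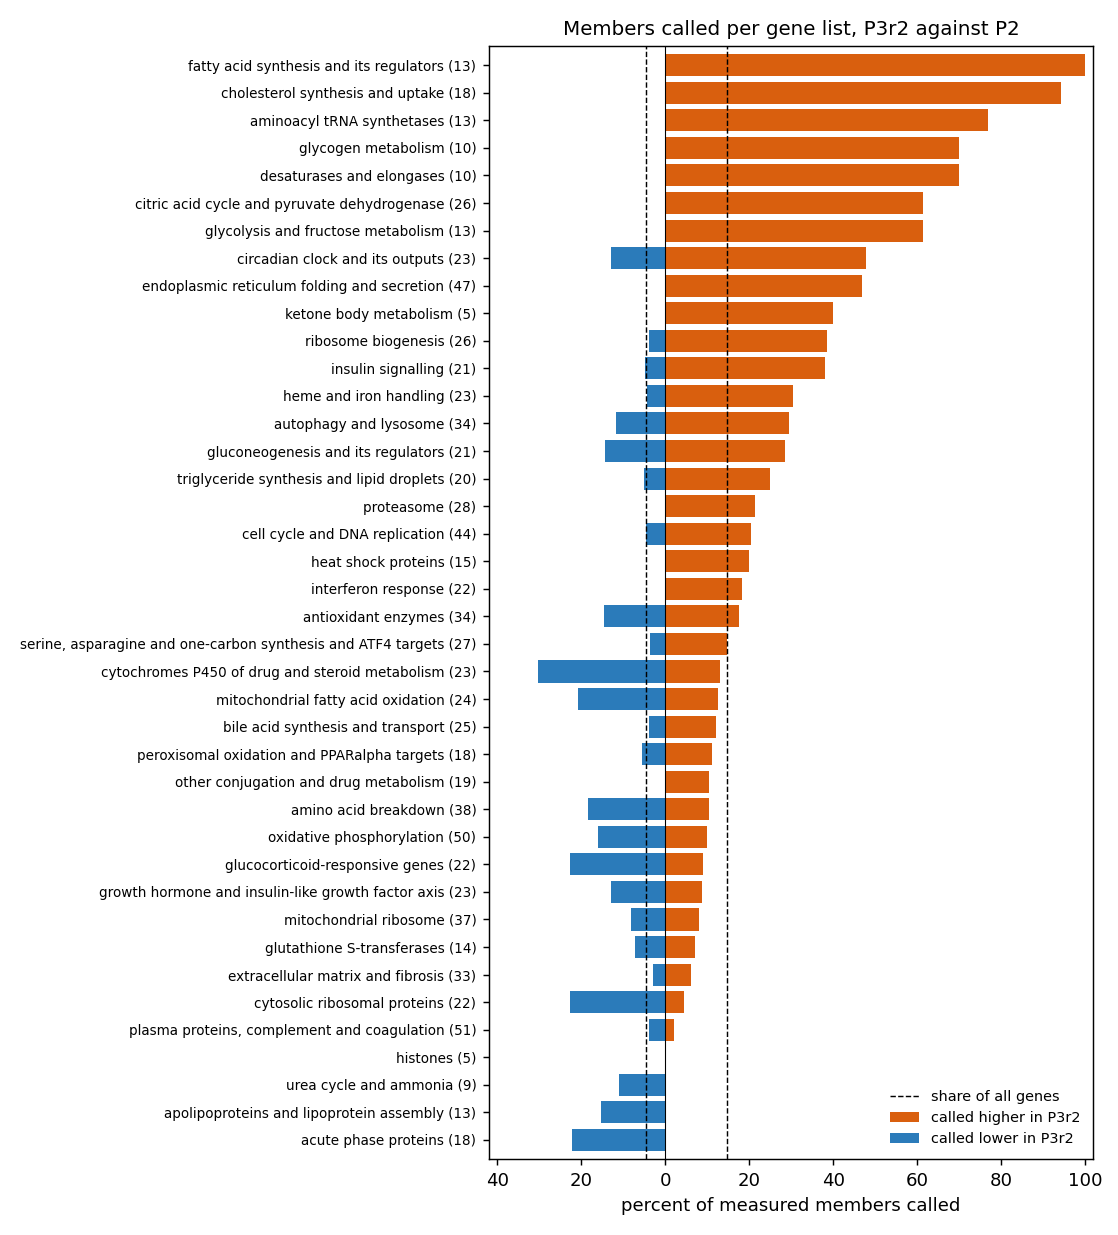
Percent of the measured members of each of 40 gene lists called higher (orange, to the right) or lower (blue, to the left) in P3r2 than in P2, with the number measured in brackets and dashed lines at the shares of all genes, 14.8% and 4.69%. The lists of fatty acid synthesis, cholesterol, tRNA synthetase, glycogen, desaturase and elongase, citric acid cycle and glycolysis genes reach farthest to the right, and those of cytochromes P450, glucocorticoid-responsive genes, cytosolic ribosomal proteins and acute phase proteins reach farthest to the left.

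Genes of protein making and secretion were higher in several lists. Of 13 aminoacyl tRNA synthetases, which load amino acids onto tRNA, 10 were higher and 0 lower (median 0.80; 3 also with the covariate). Farsb (1.34 ± 0.19) and Lars1 (1.24 ± 0.29), for phenylalanine and leucine, led them. Asns, asparagine synthetase, had 3.95, 4.33, 4.38 and 4.20 in P2 and 6.62, 6.91, 5.84 and 6.25 in P3r2, a change of 2.19 ± 0.22 with no overlap. Its P2 signals lay below the median of every P2 array (4.41 to 4.46), so they may be at background and the change a lower bound. Asns belongs to the list of ATF4 targets and of serine and one-carbon synthesis, in which 4 of 27 were higher and 1 lower (2 and 1 with the covariate), a share of 14.8% higher that equals the background. The other higher members were the mitochondrial folate enzymes Mthfd2 (1.52 ± 0.31) and Shmt2 (1.45 ± 0.22) and the cytosolic Mthfd1 (1.01 ± 0.18), and the lower one was Trib3 (-1.37 ± 0.23), a pseudokinase that binds AKT. Atf3 (-0.02 ± 0.22), a stress factor, was not called.

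The amino acid response element, which ATF4 binds, was searched as TGATGNAA on both strands. It lay in the windows of 3 of the 10 higher synthetases, or 30%, and of 3 of the 12 measured ones, or 25%. Of all windows 2.71% held it, and of those of genes called higher 1.43%. In the ATF4 list it lay in 5 of the 24 measured members with a window, or 20.8%. These 5, named because they hold it, were Trib3, called lower, and Chac1 (-0.24 ± 0.32), Slc7a1 (0.12 ± 0.18), Nupr1 (0.10 ± 0.32) and Fgf21, which were not called. None of the 3 higher members of that list with a window held it. The 3 synthetases were Mars1, Nars1 and Tars1 (methionine, asparagine and threonine), named here because they hold it, and for 2 of them the stretch is shown with the element in capitals.
Mars1, chr7:65023754-65023793 (- strand), first base at -17: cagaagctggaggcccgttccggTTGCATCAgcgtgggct
Tars1, chr2:62114813-62114852 (- strand), first base at -27: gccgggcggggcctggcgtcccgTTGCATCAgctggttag
In both the element lies within 30 bases of the start, on the strand opposite to the gene. Mars1 was 0.76 ± 0.18 higher, Tars1 0.96 ± 0.20 and Nars1 0.73 ± 0.14, and none of the 3 was called with the covariate.

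In the list of endoplasmic reticulum folding and secretion, 22 of 47 were higher and 0 lower (median 0.41; 5 also with the covariate, 16 in every fit that left out 1 array). The largest changes were in transport from the reticulum: Sec31a, a coat protein of the vesicles that leave it, had 7.03, 6.70, 7.24 and 6.17 in P2 and 8.74, 8.67, 8.49 and 8.10 in P3r2 (1.71 ± 0.22). All re-fed livers were above all P2 livers. Lman1 (1.28 ± 0.25), a cargo receptor, Sec24d (1.21 ± 0.23), another coat protein, and Ssr1 (1.20 ± 0.16), of the translocon, were higher too. The ER stress element, CCAAT and CCACG with 9 bases between them, lay in the windows of 7 of the 39 members with one and in 13 of all 10871, or 0.12%. Of the 17 higher members with a window 3 held it, Hspa5 (BiP), Calr and Canx, chaperones of the reticulum, and they are shown for that reason with the element in capitals.
Hspa5, chr3:38452956-38453005 (+ strand), first base at -43: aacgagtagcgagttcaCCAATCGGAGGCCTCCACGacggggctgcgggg
Calr, chr19:40213125-40213164 (+ strand), first base at -232: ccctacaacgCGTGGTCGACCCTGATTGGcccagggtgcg
Canx, chr10:35158058-35158097 (- strand), first base at -230: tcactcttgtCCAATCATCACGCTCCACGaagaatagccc
Their changes were small beside those of the coat proteins: 0.71 ± 0.14 for Hspa5, 0.70 ± 0.16 for Calr and 0.41 ± 0.13 for Canx. None was called with the covariate, and Canx not in every fit that left out 1 array (adjusted p up to 0.12). Calr carries the element in reverse, so its CCACG reads as CGTGG ahead of ATTGG.

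Ribosome biogenesis had 10 of 26 higher and 1 lower (median 0.52), but 0 of these were called with the covariate. Ncl (1.60 ± 0.43), nucleolin, and Nolc1 (1.36 ± 0.31), another nucleolar protein, led it. Cytosolic ribosomal proteins went the other way, with 1 of 22 higher and 5 lower (median -0.20; 0 with the covariate), such as Rpl3 (-1.06 ± 0.30) and Rpl37a (-0.95 ± 0.26); these genes have many processed pseudogenes, so the source of the signal is uncertain. Mitochondrial ribosomal proteins had 3 of 37 higher and 3 lower (1 and 0 with the covariate, 2 and 6 after quantile normalization). With the length trend taken out 7 of them were higher and 2 lower. The proteasome had 6 of 28 higher and 0 lower, led by Psmd2 (1.26 ± 0.20), of its regulatory particle. Its counts were 1 and 0 with the covariate, 5 and 4 after quantile normalization, and 8 and 1 with the length trend taken out. Heat shock proteins had 3 of 15 higher and 0 lower, with Hspa4l (1.81 ± 0.24) first and the 1 called with the covariate.

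Amino acid breakdown had 4 of 38 higher and 7 lower (median -0.12; 1 and 5 with the covariate). Gnmt (-1.22 ± 0.22), which uses up S-adenosylmethionine, Gpt, Tdo2 (-0.76 ± 0.16), which opens the ring of tryptophan, and Ftcd (-0.68 ± 0.12), of histidine breakdown, were lower. Bckdk, the kinase that switches branched-chain amino acid oxidation off, was higher (1.24 ± 0.13), with 7.58, 7.69, 7.70 and 7.21 in P2 and 8.61, 8.57, 8.97 and 8.996 in P3r2 and no overlap. In the urea cycle list 1 of 9 genes was called, the lyase Asl (-0.58 ± 0.13, called with the covariate too), and Tat (0.03 ± 0.16), tyrosine aminotransferase, was not called.

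Of the hormone-responsive genes, Igfbp1 changed most and was the largest fall of the comparison. This binding protein of insulin-like growth factors, which insulin represses, had 10.88, 10.58, 10.83 and 10.33 in P2 1 to P2 4 and 5.16, 5.49, 5.39 and 6.31 in P3r2 1 to P3r2 4, a change of -5.07 ± 0.22 (limma adjusted p = 2.8e-09). The groups lay over 4 log2 units apart at their nearest, and P3r2 4 was the highest re-fed liver. Igfbp2 (-1.84 ± 0.27) was lower too. In the whole growth hormone and insulin-like growth factor list 2 of 23 were higher and 3 lower (0 and 2 with the covariate), and Igf1 (0.31 ± 0.42) and Ghr (0.34 ± 0.25), the growth hormone receptor, were not called. Of 21 insulin signalling genes 8 were higher and 1 lower (median 0.64), with Pik3r1 (1.80 ± 0.46), the regulatory subunit of PI3-kinase, first and Trib3 the lower one, and with the covariate 0 and 1 of them were called. After quantile normalization 5 were higher and 2 lower. Glucocorticoid-responsive genes had 2 of 22 higher and 5 lower (median -0.31; 1 and 3 with the covariate; 2 and 8 after quantile normalization). Sgk1 (1.61 ± 0.25), a kinase that insulin activates, was higher, while Igfbp1, Pck1, Cdkn1a and Gadd45b (-0.97 ± 0.17), a growth arrest gene, were lower.

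Cdkn1a, the cell cycle inhibitor p21, had 7.46, 8.87, 8.80 and 7.24 in P2 and 4.68, 5.95, 6.03 and 6.08 in P3r2, a change of -2.40 ± 0.41 with no overlap. P3r2 1 was the lowest. The inhibitor Cdkn1b (-0.60 ± 0.12), p27, was lower as well, and both were called with the covariate. Cyclin D1, Ccnd1, was 1.58 ± 0.26 higher, and so were Fen1 (1.28 ± 0.30) and Mcm5 (0.95 ± 0.17), which serve DNA replication. In all 9 of 44 cell cycle genes were higher and 2 lower (median 0.14), and 0 of the 9 were called with the covariate. Top2a (0.66 ± 0.23) and Mki67 (0.37 ± 0.14), markers of dividing cells, were not called (limma adjusted p = 0.062 and 0.096). In both, all 4 P3r2 values nevertheless lay above all 4 P2 values. Of the 44 genes, 15 lay apart and higher in this way, against 19.5% of all genes, and 3 apart and lower, against 9.89%.

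The clock list held large changes in both directions, with 11 of 23 higher and 3 lower (median 0.51; 3 and 1 with the covariate). Dbp, a clock-driven transcription factor, had 7.91, 7.41, 7.16 and 6.52 in P2 and 10.62, 10.73, 10.08 and 9.59 in P3r2, a change of 3.00 ± 0.28. Bmal1, the positive arm of the clock, had 6.15, 6.86, 7.16 and 6.02 and 4.17, 3.66, 5.01 and 4.61, a change of -2.19 ± 0.36. Dbp was higher in all re-fed livers and Bmal1 lower in all of them. Bhlhe40 (2.84 ± 0.28), Per3 (2.19 ± 0.24) and Nr1d1 (2.35 ± 0.57), which act against Bmal1 and its partners, were higher, and Nfil3 (-1.30 ± 0.31), a repressor that competes with DBP, was lower. Per1 (0.36 ± 0.21) was not called. Dbp, Bmal1, Bhlhe40 and Per3 were called with the covariate. The labels do not state the hour at which each group was sampled, so hour of day and feeding cannot be told apart in these genes.

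**Figure D5:**
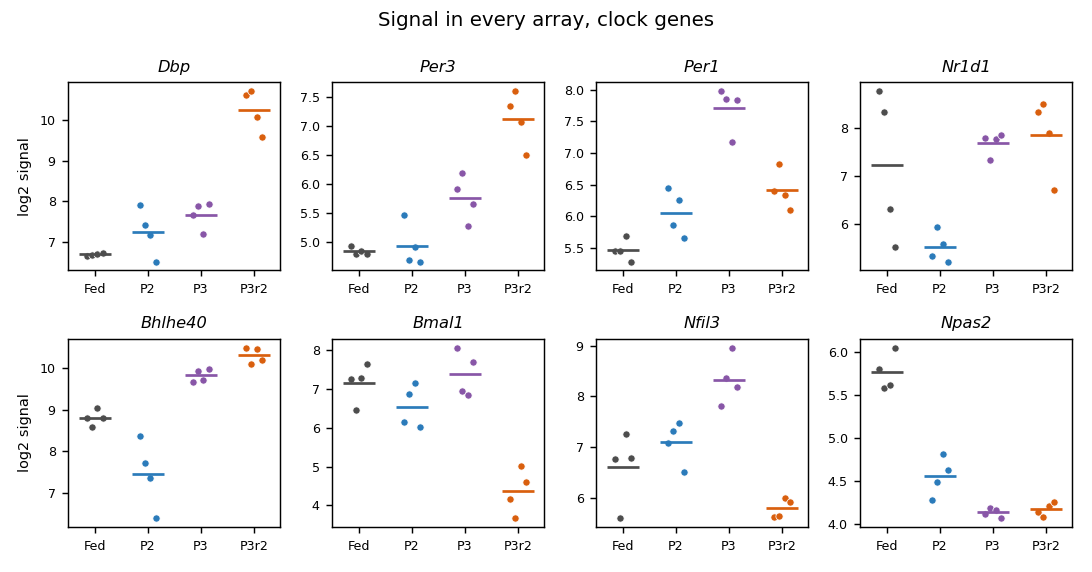
Log2 signal (vertical axes, each with its own range) of 8 clock genes in every array of the 4 groups, 1 point per animal and a bar at the group mean. In P3r2, Dbp, Per3 and Bhlhe40 lie above and Bmal1 below all arrays of the other groups, and Npas2 lies near its P3 level.

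Antioxidant enzymes were called in both directions: 6 of 34 were higher and 5 lower, with a median of -0.08 (1 and 1 with the covariate). After quantile normalization 3 were higher and 9 lower, with a median of -0.26. Gss, glutathione synthetase, had 7.83, 8.18, 8.11 and 7.11 in P2 and 9.71, 9.62, 9.44 and 9.87 in P3r2 and was higher (1.85 ± 0.29), as was Gclc (1.05 ± 0.26), the catalytic subunit of the enzyme before it. Both make glutathione. The lower members were the peroxiredoxins Prdx5 (-0.90 ± 0.24) and Prdx4 (-0.85 ± 0.26), the peroxidases Gpx4 (-0.58 ± 0.14) and Gpx2 (-0.57 ± 0.12) and the selenium carrier Selenop (-0.55 ± 0.12). Cat (0.43 ± 0.46), catalase, Sod1 (-0.13 ± 0.14), Gpx1 (-0.18 ± 0.15), Hmox1 (-0.25 ± 0.41) and Nqo1 (0.30 ± 0.52) were not called. Of 14 glutathione S-transferases 1 was higher, Gstt1 (0.82 ± 0.15), and 1 lower, Gsto1 (-0.52 ± 0.14), and in the other conjugation and drug metabolism genes 2 of 19 were higher, Aldh3a2 (0.95 ± 0.23) and Ephx1 (0.74 ± 0.16), and 0 lower. None of these 4 genes was called with the covariate.

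The cytochromes P450 of drug and steroid metabolism had 3 of 23 higher and 7 lower (median -0.25; 0 and 4 with the covariate). Cyp3a2, a steroid and drug hydroxylase, had 12.77, 12.52, 12.35 and 12.80 in P2 and 10.71, 11.02, 9.31 and 11.60 in P3r2 (-1.95 ± 0.53), and its relative Cyp3a18 was lower too (-1.61 ± 0.34). Near-identical relatives in this family can share probes, so the split among them is uncertain. Nr1i3, the receptor CAR that drives drug-metabolizing genes, was lower (-1.67 ± 0.53), but neither it nor Cyp3a2 was called in every fit that left out 1 array (adjusted p up to 0.14 and 0.082). Cyp1a1 (1.37 ± 0.28) was higher, and the male-specific Cyp2c11 (0.45 ± 0.50) and Car3 (0.24 ± 0.19), a carbonic anhydrase, were not called. Bile acid genes had 3 of 25 higher and 1 lower (0 with the covariate), the higher ones led by Cyp7a1 (1.28 ± 0.40), which takes the first step from cholesterol to bile acids. Without 1 array its adjusted p reached 0.13.

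Autophagy and lysosome genes were called in both directions. Gabarapl1, of the ATG8 family that builds autophagosomes, had 8.81, 8.95, 8.86 and 8.98 in P2 and 7.25, 7.33, 7.20 and 7.30 in P3r2 (-1.63 ± 0.17), and the related Gabarapl2 (-1.41 ± 0.34) and the lysosomal protease Ctsl (-1.43 ± 0.17) were lower. None of the 3 overlapped between the groups. In the list 10 of 34 were higher and 4 lower (median 0.10; 1 and 2 with the covariate). After quantile normalization the balance turned, with 4 higher and 9 lower and a median of -0.08. Those higher were led by Npc1 (1.71 ± 0.28), which moves cholesterol out of lysosomes, and Sqstm1 (0.92 ± 0.11), the cargo adaptor p62.

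Few secreted proteins were called. Of 51 plasma, complement and coagulation proteins, 1 was higher, C6 (1.51 ± 0.25), and 2 lower (0 and 2 with the covariate). Serpina7, the thyroxine-binding globulin, had 7.29, 8.53, 7.64 and 9.44 in P2 and 5.19, 6.32, 6.02 and 4.83 in P3r2, a change of -2.63 ± 0.50, and Apoh, a phospholipid-binding protein, was also lower (-0.56 ± 0.12). More members lay apart between the groups than were called: 20 of the 51 had all 4 P3r2 values below all P2 values, against 9.89% of all genes, and 5 had them above, against 19.5%. Serpina7 did not overlap, though the P2 livers differed widely. Acute phase proteins had 0 of 18 higher and 4 lower (median -0.41; 2 with the covariate), with 11 of the 18 apart and lower, led by Lbp (-1.29 ± 0.24), which binds lipopolysaccharide, and of 13 apolipoprotein genes 0 were higher and 2 lower, Apoa5 (-0.90 ± 0.17) and Apoc1 (-0.80 ± 0.14), both called with the covariate, with 6 of the 13 apart and lower. Heme and iron genes had 7 of 23 higher and 1 lower (0 with the covariate; 3 and 3 after quantile normalization), with Ppox (0.86 ± 0.15), of heme synthesis, and Aco1 (1.11 ± 0.26), the iron regulatory aconitase, among the higher. The interferon list had 4 of 22 higher and 0 lower, extracellular matrix 2 of 33 and 1, and histones 0 of 5 in either direction (0 in each with the covariate). Unlisted genes among the 15 largest falls were Dhrs7l1 (-3.13 ± 0.68), a dehydrogenase-like gene, Tmem140 (-1.65 ± 0.18), a membrane protein, and Glrx-ps4 (-1.72 ± 0.35), a pseudogene whose probes can share signal with its parent gene.

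The arrays carried the markers of the labelled tissue: 0 of 8 hepatocyte markers lay below the overall median signal. Of these 8 markers 0 were called, Alb (-0.14 ± 0.08) included. However, 4 of them, with Alb, lay apart and lower in P3r2, against 9.89% of all genes. Apart and higher was 1, against 19.5%. The summed signal of the 8 hepatocyte markers was 15.888 to 15.942 log2 units in P2 and 15.805 to 15.865 in P3r2, slightly lower with no overlap. Of the other cell types, endothelial, cholangiocyte, lymphocyte and neutrophil and monocyte markers had 0 called of 6, 6, 10 and 9, Kupffer cell markers 0 of 14 higher and 1 lower, and stellate cell markers 1 of 7 higher and 1 lower. The summed Kupffer signal was 11.8 to 12.2 in P2 and 11.4 to 12.01 in P3r2. Red cell signal differed: Hbb-b1, a beta globin with near-identical copies, had 8.06, 8.73, 10.61 and 7.71 in P2 and 6.60, 7.45, 7.30 and 6.22 in P3r2 (-1.89 ± 0.49) with no overlap. It was the 1 of 4 erythroid markers called, and their summed signal was 8.36 to 10.7 in P2 and 7.45 to 8.13 in P3r2. Muscle and pancreas markers had 1 lower each of 7 and 9, with summed signals of 7.71 to 7.92 and 7.90 to 8.07 in P2 and 7.60 to 7.77 and 7.59 to 7.86 in P3r2, and adipose markers 2 lower of 7, Lpl (-1.35 ± 0.33), lipoprotein lipase, and Plin1 (-0.41 ± 0.13). Red cell and pancreas signal and, by a small step, hepatocyte marker signal moved with the groups, and their part in the other results was not tested.

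Set beside the Fed livers, most genes called between P2 and P3r2 had a Fed level nearer to P3r2. Of the 1962 genes called higher, the Fed mean lay at or above the P3r2 mean in 272, between and nearer P3r2 in 1049, between and nearer P2 in 525, and at or below the P2 mean in 116. Of the 620 called lower the same 4 counts were 243, 292, 57 and 28. In 591 of the higher and 57 of the lower genes all 4 P3r2 values lay beyond all 4 Fed values in the same direction as beyond P2. Scd had a Fed mean of 12.16 and a P3r2 mean of 12.79, whereas Pnpla3 (Fed 6.01, P3r2 11.08), Elovl6 (Fed 7.82, P3r2 10.73) and Dbp (Fed 6.69, P3r2 10.25) lay well above their Fed means. The P3 livers were less clearly placed among the higher genes: their mean was at or above that of P3r2 in 546, between and nearer P3r2 in 485, between and nearer P2 in 432, and at or below that of P2 in 499. Among the 620 lower genes the first 3 of these counts were 130, 280 and 109, so most lay at or nearer to the P3r2 mean. The mean array spread of Fed (1.85) and of P3 (1.94) also lay between those of P2 (1.65) and P3r2 (2.03). Its part in these positions was not tested. The positions are descriptions with no test, since the genes were chosen on the P2 and P3r2 values.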

How the data were processed

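Per the submitters' processing notes and the design text, the authors processed the arrays with Affymetrix GCOS 1.4 and Expression Console 1.1, and the deposited values were used as log2 signal, with no further scaling. The base was inferred from the range, 0.836 to 13.6; the labels and notes used here give no background correction or summarisation. Of 19418 rows, 533 whose identifiers fall below those of the probe table were left out. Of the 18885 tested, 13335 carry 1 symbol, 612 several and 4938 none; the brightest row stood for a gene. Symbols, lengths (gene spans) and promoters come from the array's probe table and RefSeq GRCr8.

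Groups were compared with limma 3.58.1 (R 4.3.3): 1 mean per group over all 16 arrays, eBayes, two-sided, Benjamini-Hochberg over all rows, threshold 0.05. The limma fit was run on simulated data, independent normal draws with known changes added, as a check of the mean change recovered. The simulation held no difference in array spread between the groups, so it does not bear on that difference. Nothing in the labels pairs the animals, and the number of arrays limits precision. The members, the 51 gene lists (979 of 1358 genes measured) and the tests were chosen with earlier results of these data known. Named are the 15 largest called changes in each direction without overlap, in each list up to 4 called members a direction, and 60 key genes, of which 51 were measured; the text names a part. Taldo1, Srebf2, Scarb1, Selenop, Pck2, Fbp1 and the genes named for their promoters were added after their values were seen, as were those of the closing section that it marks. List medians and counts are descriptions, with no set test. Alternatives were scaling (quantile, median), array spread as a covariate, eBayes options, array weights, the 8 arrays alone, brighter rows, a threshold of 0.01, mean rows, a replicate block, the length trend and each array left out. The fits without 3 arrays of narrow spread (Fed 2, P2 4, P3 3), over rows of known length, and with the 533 rows were added once the data had been seen. Matplotlib 3.10.9 drew the figures.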

Additional observations from a re-analysis of the deposited data

Results flagged for a closer look

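In 332 sets of 4 values examined, 1 value stood far from the other 3 in 16 cases by Dixon's test, which chance passes in about 1 in 20 sets. Each value is a log2 signal, and no explanation was tested.

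P2 4 was the low array in 4 genes. Gpd1 had 10.04 there and 10.77 to 10.84 in the other 3. Igf1 had 10.90 there and 11.33 to 11.41 in the other 3. Ncl had 5.46 there and 7.29 to 7.59 in the other 3. Pck1 had 11.10 there and 11.86 to 11.91 in the other 3. The sizes ran from a slight step in Igf1 to a wide one in nucleolin, Ncl. P2 3 was the high array in 2 genes. Aldh1b1 had 6.02 there and 5.27 to 5.37 in the other 3. Plin2 had 9.56 there and 8.64 to 8.80 in the other 3.

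P3r2 1 was low in 2 genes and high in 1. Apoa5 had 9.60 there and 10.13 to 10.17 in the other 3. Cdkn1a had 4.68 there and 5.95 to 6.08 in the other 3. Slc2a5 had 8.74 there and 8.27 to 8.32 in the other 3. P3r2 3 was low in malic enzyme and high in lipoprotein lipase. Me1 had 9.85 there and 10.73 to 10.82 in the other 3. Lpl had 5.44 there and 4.63 to 4.76 in the other 3. In P3r2 2, Cldn1 was low, and in P3r2 4, Fen1 was low and Plin1 high. Cldn1 had 6.10 there and 6.96 to 7.04 in the other 3. Fen1 had 5.51 there and 6.39 to 6.43 in the other 3. Plin1 had 4.76 there and 4.42 to 4.47 in the other 3. Scd2 was low in P3r2 4, at 6.11 against 7.14 to 7.32 in the other re-fed arrays.

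The spread of P3r2 4 (distance from median to upper quartile) was 1.83, below the 2.07 to 2.12 of the other re-fed arrays, with a gap of 0.843 of the group's range.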

How the results depend on the processing

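The values rest on 4 animals a group and a deposited scale of unstated construction. Of 2131 rows higher and 823 lower, 289 and 262 were called with array spread as a covariate, and 999 and 181 at an adjusted p below 0.01. Array weights gave 3126 and 1691. With 1 array left out the higher count ran from 1258 to 2393 and the lower from 335 to 907, and the difference in spread ran from 0.33 to 0.44; its exact p was 0.05714 without any 1 of the P2 arrays. With the replicate number as a block the counts were 1794 and 595; same-numbered arrays deviated together by correlations of only -0.03 to 0.24, so the numbers were not taken as pairs. Without the 3 arrays of narrow spread they were 2234 and 910, with the 533 rows 2200 and 853, over rows of known length 2167 and 771, and with the length trend taken out of these 2115 and 844. Of the 192 genes that the naming rule took and the fit called, 71 were called with the covariate, 173 after quantile normalization and 139 to 181 with 1 array left out. None of these genes reversed under an alternative in which it was tested; genes named outside the rule were not part of this check.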

Other observations

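Several genes of other kinds stood next in size after the 15 largest changes in each direction; they were chosen after their values were seen. Higher in the re-fed livers were Sgk2 (2.81 ± 0.21), a kinase related to Sgk1, Aldh1b1 (2.78 ± 0.27), a mitochondrial aldehyde dehydrogenase, and Inhbe (2.68 ± 0.45), an inhibin subunit that hepatocytes secrete. Isyna1 (2.67 ± 0.29), which makes inositol phosphate, Fabp2 (2.65 ± 0.19), the intestinal fatty acid binding protein, and Slc39a4 (2.59 ± 0.23), a zinc importer, were higher too. So were Hsd17b2 (2.36 ± 0.20), a steroid dehydrogenase, Chek1 (2.16 ± 0.20), a checkpoint kinase, and Rcan1 (2.12 ± 0.17), an inhibitor of calcineurin. Among these 9 genes Inhbe was not called with array spread as a covariate (limma adjusted p = 0.062).

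Lower in the re-fed livers were Rab30 (-1.60 ± 0.34), a Golgi GTPase, Acsm3 (-1.39 ± 0.28), a medium-chain acyl-CoA synthetase, Cldn1 (-1.37 ± 0.32), a tight junction protein, and Fdx1 (-1.35 ± 0.22), the ferredoxin of mitochondrial cytochromes P450. In all these genes the 4 P2 and 4 P3r2 values did not overlap. Cldn1 was not called with the covariate (limma adjusted p = 0.13).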
